A study of Mus musculus with 4 samples.

Results

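The nuclear envelope genes described here encode the lamins, proteins of the inner nuclear membrane, the bridges between nucleus and cytoskeleton, and the nuclear pore. They were chosen by name from the annotation of the authors' deposited table, as symbols of the form Nup plus a number, with or without a final l, and a written list of lamina, envelope and pore genes. The choice was made with earlier results of these data known. It gave 39 of the 25177 gene symbols in that table, each taken at its most abundant transcript. The libraries hold nuclear RNA of NIH-3T3 cells, an established mouse fibroblast line. All cells carried stably expressed H2B-mCherry, the rtTA3G transactivator and a CDX2 transgene under the TRE3G promoter, which doxycycline switches on through rtTA3G. Doxycycline was given for 6 h at 500 ng/ml to the cells of 2 libraries, and solvent alone to those of the other 2, with 500000 cells each. The treatment protocol writes the dose per microlitre and the extraction protocol per millilitre. The labels do not say whether the line is 1 clone. They do not say either whether the replicates were grown apart, so the spread behind the p-values may be technical. Cells without the transgene given doxycycline were not analysed here, so effects of CDX2 and of the drug cannot be told apart. The comparison asks which nuclear transcripts differ after induction of CDX2, a homeobox transcription factor of gut, trophectoderm and posterior axis.

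The nuclear envelope is a double membrane, lined on its inner side by a meshwork of A-type and B-type lamins to which chromatin attaches. LEM domain proteins and the lamin B receptor hold chromatin to this lining, and SUN and nesprin proteins pair across the envelope into the LINC complex, which joins the lamina to the cytoskeleton. Nuclear pore complexes pierce the envelope. They are built of nucleoporins in stacked rings, with a channel that lets import and export receptors pass, and in fibroblasts the lamina is known for its part in stiffness and in keeping silent chromatin at the periphery.

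The authors' deposited table gives 1 fold change and 1 mean level per transcript and no value per library. Levels are in CPM, counts scaled to a library of 1000000, and those given for a group were computed from the mean level and the fold change of the authors' deposited table. The ± after a log2 fold change is its standard error, computed as the fold change over its t score, and a positive value means higher with doxycycline. An effective library holds about 45700000 counts, as a geometric mean. A gene was tested if its mean reached 10 counts per library, and called if the authors' adjusted p was under 0.05. Cdx2 itself stood at 612 CPM with doxycycline against 4.96 CPM with solvent, a log2 fold change of 6.95 ± 0.091 in the authors' deposited table. Of 10 fibroblast markers, 9 reached 1 CPM, up to 2086 CPM for Col1a1, while Postn stood at 0.129 CPM, in the authors' deposited table. Their summed level was 6195 CPM with doxycycline against 7423 CPM with solvent, and 7 of the 10 were called lower, in the authors' deposited table. Over all libraries the markers of epithelium, blood and neurons averaged under 1 CPM, and of those of endothelium and muscle only Cdh5 (3.86 CPM) and Des (2.00 CPM) reached it in the authors' deposited table. Of these markers of other cell types 1 was called, the epithelial Cdh1, which fell to 0.464 CPM with doxycycline, against 1.43 CPM with solvent, a log2 fold change of -1.62 (adjusted p 2.14e-11) in the authors' deposited table. What part these marker levels have in the results was not tested.

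With doxycycline, the authors' deposited table had 10 of the 38 envelope genes tested lower, 1 higher and 27 not called. The nesprin gene Syne2 was 30.1% higher, and the falls ran between 11.1% for Nup205 and 22.2% for the nesprin gene Syne1, with Lmna 19.3% lower, in the authors' deposited table. Of the 10 falls, 8 were in pore genes. Over all 12355 genes tested, 24.7% were called, 11.3% higher and 13.4% lower, against 28.9% of the envelope genes, 2.63% higher and 26.3% lower, in the authors' deposited table. The share called is thus near that of all genes. The median log2 fold change was -0.086 over the envelope genes and -0.0011 over all genes tested in the authors' deposited table. In bulk RNA, fewer nuclei with a transcript and less of it per nucleus cannot be told apart.

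**Figure D1:**
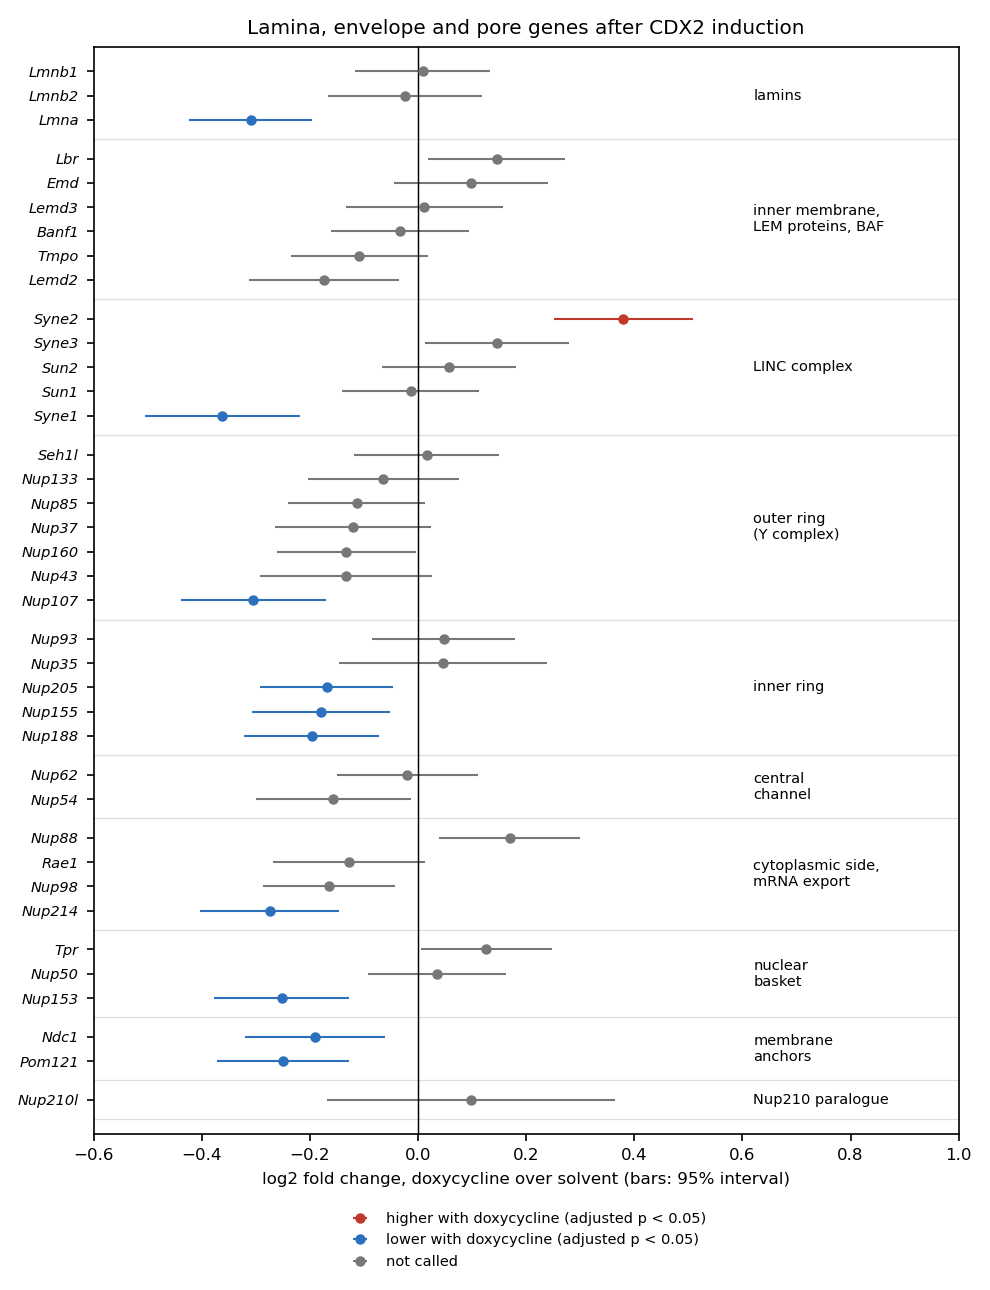
Log2 fold change of the 38 tested envelope genes, doxycycline over solvent, grouped by role, with 95% intervals as bars. Red marks the 1 gene called higher (Syne2), blue the 10 called lower, and grey the 27 not called. The pore genes lean to the left of 0, while the LINC complex has both the highest and the lowest value.

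These calls rest on small changes and on a spread pooled over transcripts. A fit on level and fold explained 99.3% of the variance of log standard errors over 19541 rows of the authors' deposited table, so they do not hold each gene's own replicate spread. With every standard error made 2.08 times wider, by the robust SD of the t scores, and p adjusted over the genes tested, 0 envelope genes were called higher or lower in limma's test, against 4.66% of all genes tested (1.54% higher and 3.12% lower). At an unadjusted p under 0.05 with that widening, 1 was higher and 4 were lower, and the share of all genes at that level was not computed. The widening factor was taken over all genes tested, so any real changes among them add to it. Adjusting p over the genes tested here, with nothing else changed, gave 2 envelope genes higher and 11 lower, against 12.7% and 14.7% of all genes, and the additions were Nup88, higher, and Nup98, lower. Centring on the median on top of that adjustment left these counts at 2 and 11 (12.8% and 14.7% of all genes), and so did the mean over a gene's transcripts (12.6% and 14.6%). The longest transcript gave 1 higher and 11 lower (11.3% and 13.4% of all genes), with Tmpo added. Without a count floor the counts were 1 higher and 10 lower (5.95% and 7.13% of all genes), as with a floor of 50 counts (12% and 14.5%). The median size of the called changes was 0.25 on the log2 scale for the envelope genes, against 0.37 over all called genes in the authors' deposited table.

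Most of these genes were abundant in nuclear RNA. Of the 38 tested, 36 lay at or above the median level of all genes tested, 16.7 CPM, in the authors' deposited table. Abundant genes leaned lower as a whole. Among the 3242 genes tested between 31.2 and 111.6 CPM, the middle 50% of the levels of the envelope genes, 8.76% were called higher and 18% lower, with a median log2 fold change of -0.023, in the authors' deposited table. Of the 18 envelope genes in that range, 1 was called higher and 4 lower in the authors' deposited table. Rank correlations of fold change with level were weak over the envelope genes (Spearman's rho -0.18, n = 38 genes that share the same 4 libraries) and over all genes tested (rho -0.13, n = 12355), in the authors' deposited table. Those with exon length (-0.12 and -0.11) and with the length of the gene in the genome (-0.023 and -0.094) were no stronger in the authors' deposited table.

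**Figure D2:**
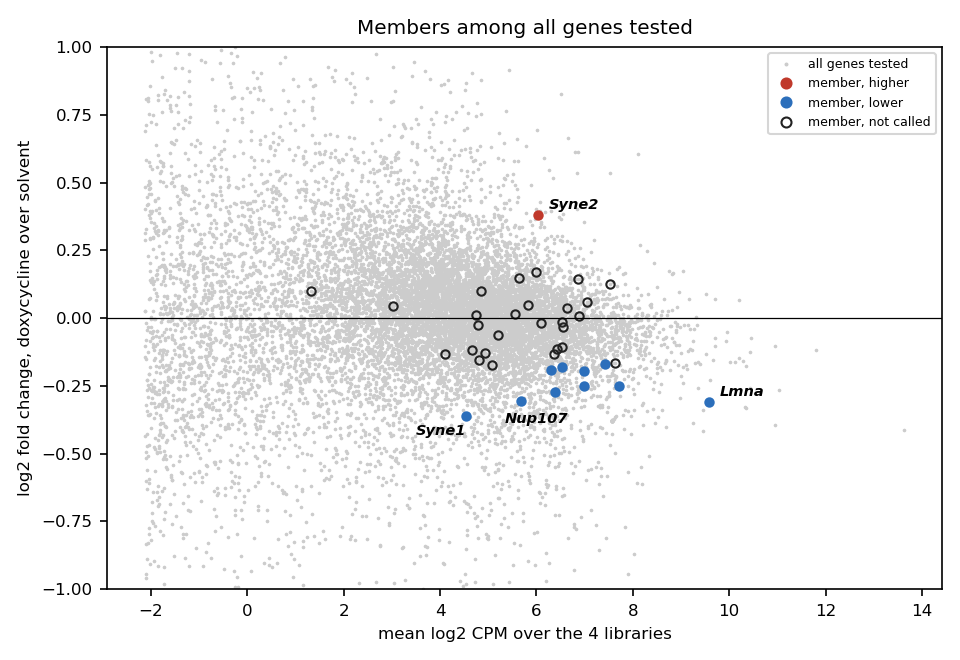
Log2 fold change (doxycycline over solvent) against mean log2 CPM for all genes tested (grey, 207 genes beyond 1 in size lie outside the frame), with the envelope genes called higher in red, called lower in blue and not called as open circles. Syne2 lies above 0, and the 10 blue points lie between -0.17 and -0.36.

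The lamins are intermediate filament proteins. Lmna encodes the A-type lamins A and C, and Lmnb1 and Lmnb2 encode the B-type lamins. Lmna (NM_001002011, mm10 chromosome 3, 88481148 to 88503352, minus strand) was the most abundant envelope gene per length, at 244 CPM per kb of exon in the authors' deposited table. Its level was 692 CPM with doxycycline against 857 CPM with solvent, a log2 fold change of -0.31 ± 0.058 (adjusted p 2.15e-06) in the authors' deposited table. Lmnb1 stood at 119 CPM with doxycycline and 118 CPM with solvent (0.0085 ± 0.064 on the log2 scale, adjusted p 0.929) in the authors' deposited table. For Lmnb2 the levels were 27.5 CPM with doxycycline and 28.0 CPM with solvent (-0.025 ± 0.073, adjusted p 0.873) in the authors' deposited table. So the A-type gene fell and neither B-type gene was called. The log2 fold change of Lmna was lower than that of Lmnb1 by 0.32 (95% interval of the difference -0.49 to -0.15) and than that of Lmnb2 by 0.28 (-0.47 to -0.10), from the values of the authors' deposited table. These and the later intervals of differences use standard errors without the widening described above.

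The sequences before the transcription start are shown for 4 called genes, the A-type lamin, the nesprin that rose, and the pore genes Nup107 and Pom121, so that their motifs can be read beside the values. Each is the 250 bases before the start on the gene's strand, from RefSeq on GRCm38.p6, the patch release of mm10. Capitals mark the motifs searched, on both strands. These were TTTATG, the core bound by CDX proteins, CCAAT, the box bound by NF-Y, CCGGAA, the core bound by ETS factors, and TATAAA, the TATA box, whose other strand, TTTATA, differs from TTTATG in its last letter alone.
Lmna, chr3:88503353-88503602, minus strand: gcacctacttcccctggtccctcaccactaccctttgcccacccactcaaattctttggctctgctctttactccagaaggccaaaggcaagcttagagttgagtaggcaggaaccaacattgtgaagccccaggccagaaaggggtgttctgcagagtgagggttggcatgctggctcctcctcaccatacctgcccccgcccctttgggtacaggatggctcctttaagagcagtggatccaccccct
Syne2, chr12:75818068-75818317, plus strand: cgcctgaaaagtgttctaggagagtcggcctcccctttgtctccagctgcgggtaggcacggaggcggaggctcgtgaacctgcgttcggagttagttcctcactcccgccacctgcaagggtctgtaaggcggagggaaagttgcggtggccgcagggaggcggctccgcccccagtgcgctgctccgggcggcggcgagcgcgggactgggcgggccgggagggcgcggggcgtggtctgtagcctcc
Nup107, chr10:117792706-117792955, minus strand: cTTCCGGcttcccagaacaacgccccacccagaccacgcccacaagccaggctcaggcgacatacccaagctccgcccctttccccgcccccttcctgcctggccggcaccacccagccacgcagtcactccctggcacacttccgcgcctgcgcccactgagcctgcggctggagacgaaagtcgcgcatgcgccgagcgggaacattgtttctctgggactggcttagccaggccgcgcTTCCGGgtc
Pom121, chr5:135394547-135394796, minus strand: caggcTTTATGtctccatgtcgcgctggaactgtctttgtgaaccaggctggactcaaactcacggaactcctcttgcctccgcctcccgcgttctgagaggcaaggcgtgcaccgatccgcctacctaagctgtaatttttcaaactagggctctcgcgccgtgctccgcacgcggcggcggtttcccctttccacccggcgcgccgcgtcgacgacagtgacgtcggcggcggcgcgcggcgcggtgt

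Over windows of 300 bases (250 before and 50 after the start), 32 of the 39 envelope genes and 9724 of the genes tested had a RefSeq promoter to search. TTTATG was in 4 of the 32, Nup93, Pom121, Rae1 and Syne1, or 12.5%, against 6.04% of all genes tested. In Pom121 it began at base -245 from the start. The CCAAT box was in 50% of them, against 39.8% of all genes tested. CCGGAA was in 28.1% of the envelope genes against 30.3% of all genes tested, and TATAAA in 6.25% against 6.65%. Among the 10 genes that fell, TTTATG was in 2, CCAAT in 2, CCGGAA in 3 and TATAAA in 1. Syne1 is among those with TTTATG and is the 1 with TATAAA. Its window was taken at the start of its representative row (5488314). That start lies within the stretch of its 5' row, which had a mean of 1.35 counts. Whether Syne1 is transcribed from that start in these cells was not tested. The median GC content of these windows was 64.3% in the envelope genes and 61.3% in all genes tested. The windows of Lmna and Syne2 held none of the 4 motifs. A match describes letters and not binding.

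The inner nuclear membrane proteins and their chromatin partner were not called in either direction. Of 6 tested, 0 passed in limma's test in the authors' deposited table, against 24.7% of all genes tested. At an unadjusted p under 0.05, where 4493 of all 12355 genes tested passed, 2 of the 6 did. Those were Lbr, the lamin B receptor and a sterol reductase (0.15 ± 0.064, adjusted p 0.123, 122 CPM with doxycycline against 111 CPM with solvent), and Lemd2, a LEM domain protein (-0.17 ± 0.071, adjusted p 0.0845, 31.8 against 35.8 CPM), in the authors' deposited table. The log2 fold change of Lemd2 was lower than that of Lbr by 0.32 (95% interval of the difference -0.51 to -0.13), from the values of the authors' deposited table. Emd, which encodes emerin, stood at 29.8 CPM with doxycycline and 27.9 CPM with solvent (0.099 ± 0.073, adjusted p 0.507) in the authors' deposited table. Lemd3, also known as MAN1 and an inhibitor of SMAD signalling, had 27.1 CPM with doxycycline and 26.9 CPM with solvent (0.012 ± 0.074) in the authors' deposited table. Banf1, which encodes the small DNA-bridging protein BAF that binds LEM domains, was the second most abundant per length (84.7 CPM per kb) and stood at 92.4 CPM with doxycycline and 94.5 CPM with solvent in the authors' deposited table. Its row overlaps that of Eif1ad by 64 bases.

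Tmpo encodes the LAP2 family, LEM proteins made from alternative transcripts. Its representative row was not called (-0.11 ± 0.065, adjusted p 0.338, 89.4 CPM with doxycycline against 96.4 CPM with solvent) in the authors' deposited table. The table has 6 rows for it, and 1 of them, NM_011605, was called lower (-0.18 ± 0.065, adjusted p 0.0377) in the authors' deposited table. That row ends at another 3' site (91160417 on chromosome 10, minus strand) than the other 5 (91147571). These span -0.11 to -0.096 in log2 fold change in the authors' deposited table. Rows of 1 gene share exons and so reads, and whether the transcripts differ among themselves was not tested.

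The LINC complex held the largest rise and the largest fall. Syne2 (NM_001005510, chromosome 12, 75818318 to 76110928, plus strand), which encodes the giant outer membrane protein nesprin-2, had 74.8 CPM with doxycycline against 57.5 CPM with solvent, a log2 fold change of 0.38 ± 0.066 (adjusted p 2.24e-07) in the authors' deposited table. Its paralogue Syne1 (NM_001347711, chromosome 10, 5020196 to 5488314, minus strand), which encodes nesprin-1, had 20.4 CPM with doxycycline against 26.2 CPM with solvent, a log2 fold change of -0.36 ± 0.073 (adjusted p 1.40e-05) in the authors' deposited table. Both nesprins are known to bind actin through their giant forms. Which forms the Syne1 reads came from was not tested, and the row of its 5' part held a mean of 1.35 counts. The difference between the log2 fold changes of these nesprin genes, Syne1 minus Syne2, was -0.74 (95% interval -0.93 to -0.55), from the values of the authors' deposited table. Per length they were scarce, at 3.05 CPM per kb of exon for Syne2 and 0.822 for Syne1 in the authors' deposited table.

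The other LINC genes did not pass. Syne3, whose product nesprin-3 binds the cytolinker plectin, had 52.6 CPM with doxycycline against 47.5 CPM with solvent (0.15 ± 0.068, adjusted p 0.151) in the authors' deposited table. Their inner membrane partners stood at 92.2 CPM with doxycycline and 93.1 CPM with solvent for Sun1 (-0.013 ± 0.065), and at 134 CPM with doxycycline and 129 CPM with solvent for Sun2 (0.058 ± 0.063), in the authors' deposited table. The 95% interval of the difference between Sun1 and Sun2 held 0, and those of Syne2 against Sun1, Sun2 and Syne3 did not.

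The 5 rows of Syne1 did not carry reads evenly. The representative row and NM_001347732, which runs to the far 5' end, had 0.822 and 0.812 CPM per kb of exon, and the rows of the 3' part alone, NM_001079686 and NM_022027, had 1.24 and 1.05, in the authors' deposited table. NM_153399, the row of the 5' part (5336949 to 5550692), had 0.0059 CPM per kb, a mean of 1.35 counts over 6919 exon bases, in the authors' deposited table. In GENCODE M21, 4843 of the 6990 exon bases of the transcript matched to that row also belong to the longest Syne1 transcript. The far 5' exons of Syne1 thus held almost no reads. The representative row had 23.1 CPM and NM_001079686, of the 3' part, 13.3 CPM in the authors' deposited table. The folds of the 4 rows with reads were between -0.36 and -0.28 on the log2 scale in the authors' deposited table. The authors' deposited table lists the 5' row at -2.29 ± 0.69 (adjusted p 0.00804), on too few counts to be tested here.

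**Figure D3:**
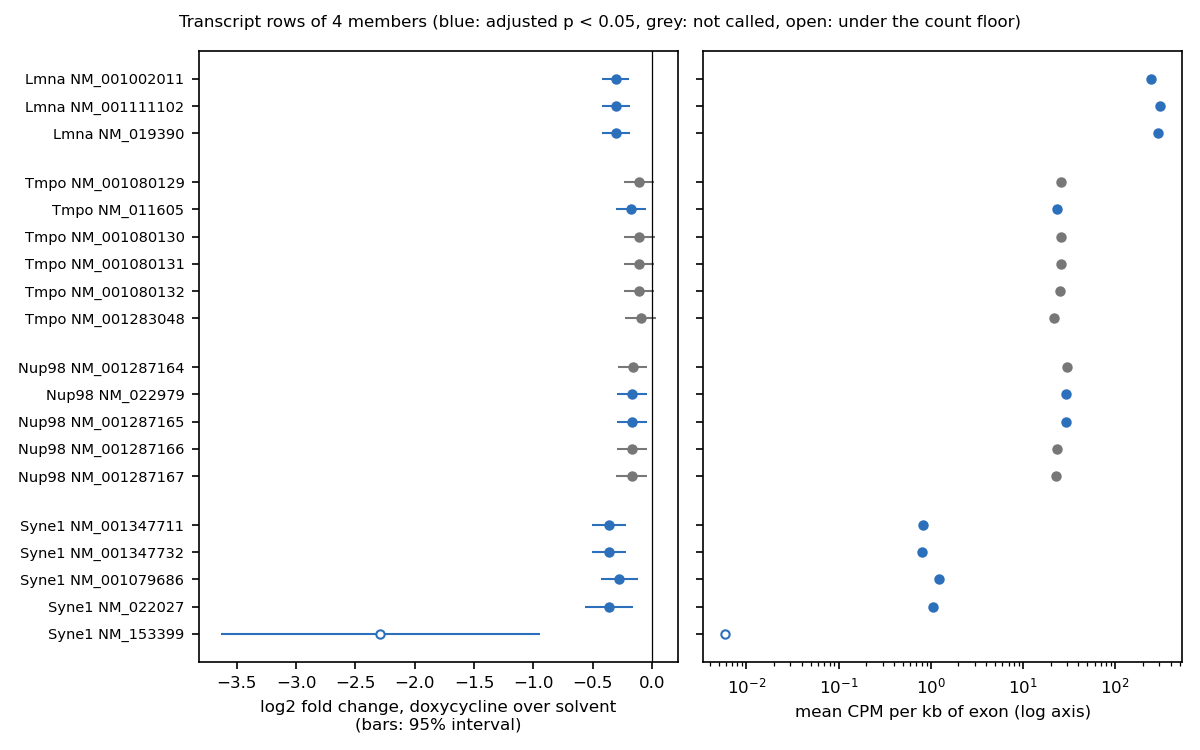
Transcript rows of Lmna, Tmpo, Nup98 and Syne1, with the log2 fold change (doxycycline over solvent) and its 95% interval at left and the mean CPM per kb of exon on a log axis at right. Blue rows have an adjusted p under 0.05, grey rows do not, and the open circle is the Syne1 row with a mean of 1.35 counts, far below the other rows in level.

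Lmna had 3 rows, which were called alike, with log2 fold changes of -0.31, -0.30 and -0.31 and 244 to 309 CPM per kb of exon, in the authors' deposited table. Across all 39 envelope genes, 16 had more than 1 row.

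The nuclear pore genes fell or did not pass. By limma's test in the authors' deposited table, 8 of the 24 tested fell, 0 rose and 16 were not called. At an unadjusted p under 0.05, 11 were lower and 2 higher, where 4493 of all 12355 genes tested passed in either direction. By the adjusted p, 33.3% were lower and 0% higher, against 13.4% lower and 11.3% higher of all genes tested. Of all genes in the range of levels given above, 18% were lower and 8.76% higher. Nup153, Nup188, Nup205 and Pom121, which fell, lay above that range, and 4 of the 18 envelope genes within it were called lower. The median log2 fold change of the 24 pore genes tested, at all levels, was -0.13, and 17 of the 24 lay below 0, in the authors' deposited table. Among these genes, chosen by symbol, there was 1 fall in the outer ring, 3 in the inner ring, 1 on the cytoplasmic side, 1 in the basket and 2 among the membrane anchors. Pore genes under other symbols are counted with the other envelope and pore genes below. Of these, Nupl2 was called lower by limma's test in the authors' deposited table (-0.28 ± 0.10, adjusted p 0.0383). Nupl1, Ranbp2, Sec13 and Ahctf1 were not called.

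The outer ring, or Y complex, is the scaffold that coats both faces of the pore. Of its 7 genes tested, 1 was called. Nup107 (chromosome 10, 117750643 to 117792705, minus strand), a core subunit of the ring, had 46.3 CPM with doxycycline against 57.2 CPM with solvent, a log2 fold change of -0.30 ± 0.068 (adjusted p 1.25e-04) in the authors' deposited table. Its fellow subunits, Nup133, Nup160, Nup85, Nup37, Nup43 and Seh1l, had log2 fold changes between -0.13 (Nup43) and 0.016 (Seh1l) in the authors' deposited table. The log2 fold change of Nup107 was lower than that of Nup85, Nup133 and Seh1l with 95% intervals of the difference that excluded 0 (-0.32 for Seh1l, interval -0.51 to -0.13), and the intervals against Nup160, Nup37 and Nup43 held 0, from the values of the authors' deposited table. A fall of the whole Y complex was therefore not shown.

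The inner ring links the scaffold to the membrane and to the central channel. Nup188 had 118 CPM with doxycycline against 135 CPM with solvent (-0.20 ± 0.064, adjusted p 0.0168) in the authors' deposited table. Nup155, a membrane-binding subunit, had 87.5 CPM with doxycycline against 99.0 CPM with solvent (-0.18 ± 0.065, adjusted p 0.0401) in the authors' deposited table. Nup205, the large paralogue of Nup188, had 163 CPM with doxycycline against 183 CPM with solvent (-0.17 ± 0.063, adjusted p 0.0467) in the authors' deposited table. All 3 fell, by 11.1% to 12.7%. Nup93, the linker that binds Nup188 and Nup205, had 57.6 CPM with doxycycline and 55.8 CPM with solvent (0.048 ± 0.068, adjusted p 0.873) in the authors' deposited table. Against Nup93, the 95% intervals of Nup188, Nup155 and Nup205 all excluded 0, the largest difference being -0.24 (-0.43 to -0.062), from the values of the authors' deposited table. Nup35, a further membrane-binding subunit and the least abundant of the ring at 8.11 CPM, stood at 0.046 ± 0.098 in the authors' deposited table.

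The channel genes Nup62 and Nup54 encode proteins with phenylalanine-glycine repeats, the surface that transport receptors bind. Nup62 had 67.4 CPM with doxycycline and 68.3 CPM with solvent (-0.020 ± 0.066), and Nup54 had 26.7 CPM with doxycycline against 29.7 CPM with solvent (-0.16 ± 0.073, adjusted p 0.157), in the authors' deposited table. Neither was called. Nup62's row overlaps those of Il4i1b and Atf5.

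On the cytoplasmic side, messenger RNA leaves the pore. Nup214, which carries phenylalanine-glycine repeats there, had 76.2 CPM with doxycycline against 92.2 CPM with solvent (-0.27 ± 0.066, adjusted p 4.19e-04) in the authors' deposited table. Its partner Nup88, which is known to form a subcomplex with it, had 67.4 CPM with doxycycline against 59.9 CPM with solvent (0.17 ± 0.067, adjusted p 0.0657) in the authors' deposited table. Between these partners the difference in log2 fold change, Nup214 minus Nup88, was -0.44 (95% interval -0.63 to -0.26), from the values of the authors' deposited table. Nup214's row overlaps 3921 bases of Fam78a on the opposite strand, a gene of 3.77 CPM.

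Nup98 encodes a precursor that is cut into the repeat protein Nup98 and the scaffold protein Nup96, so 1 gene serves both sides of the pore. Its representative row lay just outside the threshold, with 188 CPM with doxycycline against 211 CPM with solvent (-0.16 ± 0.062, adjusted p 0.0526) in the authors' deposited table. Of its 5 rows, 2 were called lower, and all 5 had log2 fold changes between -0.17 and -0.16 in the authors' deposited table. Rae1, the export factor that binds Nup98, had 29.0 CPM with doxycycline and 31.7 CPM with solvent (-0.13 ± 0.072, adjusted p 0.294) in the authors' deposited table.

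From the pore, the basket reaches into the nucleus. Nup153, which tethers the basket, had 117 CPM with doxycycline against 139 CPM with solvent (-0.25 ± 0.064, adjusted p 9.59e-04) in the authors' deposited table. Tpr, the filament of the basket, had 191 CPM with doxycycline against 175 CPM with solvent (0.13 ± 0.062, adjusted p 0.189) in the authors' deposited table. Nup50, a partner of Nup153 in import, averaged 98.8 CPM over all libraries and had a log2 fold change of 0.035 ± 0.065 in the authors' deposited table. The log2 fold change of Nup153 was lower than that of Tpr by 0.38 (95% interval of the difference -0.55 to -0.20) and than that of Nup50 by 0.29 (-0.47 to -0.11), from the values of the authors' deposited table.

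Both membrane anchors that could be tested fell. Pom121 had 191 CPM with doxycycline against 227 CPM with solvent (-0.25 ± 0.062, adjusted p 7.49e-04) in the authors' deposited table, and its row overlaps 658 bases of Nsun5 on the opposite strand (-0.22 ± 0.073). Ndc1 had 73.8 CPM with doxycycline against 84.2 CPM with solvent (-0.19 ± 0.066, adjusted p 0.0298) in the authors' deposited table. Nup210, the third anchor, which is known to be induced as muscle and neural precursors differentiate, was not tested, with a mean of 0.366 counts per library in the authors' deposited table. Its paralogue Nup210l, known from testis, had 2.57 CPM with doxycycline and 2.40 CPM with solvent (0.098 ± 0.14, adjusted p 0.873) in the authors' deposited table.

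**Figure D4:**
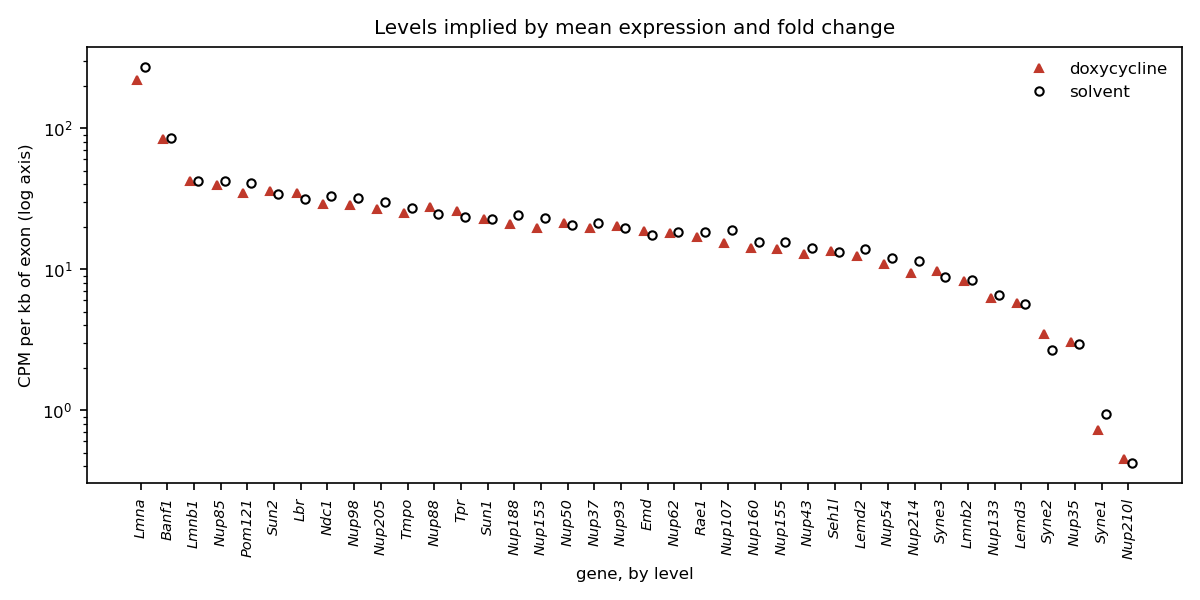
Level of each tested envelope gene in CPM per kb of exon (log axis), ordered by mean level, with doxycycline as red triangles and solvent as open circles. Each symbol is a level computed from the mean and the fold change, with no value per library. Lmna stands highest in both groups and Nup210l lowest, and the gap between the symbols is small beside the range of levels.

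Within roles, 70 pairs of genes were compared, and the 95% interval of the difference between log2 fold changes excluded 0 in 25 of them. These intervals are not adjusted for the number of pairs and take the errors of 2 genes as independent. They use the standard errors without the 2.08 times widening, so they do not hold each gene's own replicate spread. They were not recomputed with it, and wider errors would leave fewer pairs apart. The LINC complex had 7 of its 10 pairs apart and the outer ring 3 of its 21. The inner ring had 4 of 10 pairs apart, the basket 2 of 3 and the cytoplasmic side 3 of 6.

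Soluble transport factors carry cargo through the pore, and they also fell or did not pass. By limma's test in the authors' deposited table, 11 of the 33 tested fell, 0 rose and 22 were not called. That is 33.3% lower and 0% higher, against 13.4% lower and 11.3% higher of all genes tested. At an unadjusted p under 0.05, 13 were lower and 0 higher, where 4493 of all 12355 genes tested passed in either direction. Their median log2 fold change was -0.10 in the authors' deposited table. Shares among genes of like level were not computed for this list, which was chosen with earlier results of these data known. Ipo13, an import and export receptor, had 57.4 CPM with doxycycline against 92.5 CPM with solvent (-0.69 ± 0.066, adjusted p 2.56e-23), and the import receptor gene Ipo7 had 106 against 143 CPM (-0.44 ± 0.064, adjusted p 3.60e-10), in the authors' deposited table. Rcc1, the exchange factor that charges Ran with GTP on chromatin, had 33.3 CPM with doxycycline against 45.6 CPM with solvent (-0.45 ± 0.070) in the authors' deposited table. Xpo5, which exports microRNA precursors (-0.36 ± 0.065), Xpo4 (-0.37 ± 0.069) and the import receptor gene Tnpo1 (-0.29 ± 0.063) also fell in the authors' deposited table. With widened standard errors, 3 were called lower and 0 higher, against 3.12% and 1.54% of all genes tested. At an unadjusted p under 0.05 with that widening, 6 were lower and 0 higher. The share of all genes at that level was not computed.

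The other envelope and pore genes were called about as often as all genes tested. This list, too, was chosen with earlier results of these data known. Of 48 listed, 47 were in the authors' deposited table and 43 were tested, of which 7 rose, 3 fell and 33 did not pass. That is 23.3% called, 16.3% higher and 6.98% lower, against 24.7% of all genes tested, 11.3% higher and 13.4% lower. Their median log2 fold change was -0.0053 in the authors' deposited table. Narf, whose product binds prelamin A, had 36.0 CPM with doxycycline against 20.8 CPM with solvent (0.80 ± 0.074, adjusted p 1.26e-24) in the authors' deposited table. Tmem201, which encodes the inner membrane protein SAMP1, had 24.7 CPM with doxycycline against 36.4 CPM with solvent (-0.56 ± 0.073, adjusted p 6.90e-13) in the authors' deposited table. Cnep1r1 (0.45 ± 0.074), the regulatory subunit of the envelope phosphatase that acts on lipins, and Lpin1 (0.32 ± 0.086), a lipin, rose in the authors' deposited table. Cbx5, which encodes the heterochromatin protein HP1 alpha, a ligand of the lamin B receptor, fell (-0.24 ± 0.060) in the authors' deposited table. The representative row of Tor1aip2, an activator of torsin, rose (0.23 ± 0.065) in the authors' deposited table. The rows of Tor1aip2 that end at 156053736 had log2 fold changes of 0.028 to 0.033 there and were not called. With widened standard errors, 1 was called higher and 1 lower, against 1.54% and 3.12% of all genes tested.

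The envelope genes lie on 17 chromosomes, with the most on chromosome 10 (7 genes, 2 of them called) and chromosome 2 (5 genes, 2 called). Rows of other symbols overlapped those of 8 envelope genes, 3 of which were called (Nup214, Pom121 and Syne2). The kit is directional, but no source used here says whether counting used strand, so reads of overlapping genes may be shared.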

How the data were processed

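The 4 libraries hold nuclear RNA, prepared with a directional kit per the labels' protocols, 2 with doxycycline and 2 with solvent, grouped by title. Tools named in the submitters' processing notes, without role or order, are HOMER 4.10, limma, edgeR, Picard, STAR 2.7.1a and SAMtools 1.10, and the build is mm10. Per the file headers, the authors compared the groups with limma. The rows used here, those with a gene symbol, were 40739 transcripts of 25177 symbols. The authors computed a log2 fold change and a mean log2 CPM per transcript, per the file headers. They are followed by a t score, a p-value and a p-value adjusted for multiple tests, which the authors' limma fit gave, per the file headers. The authors deposited other columns too, with coordinates and exon lengths.

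The edgeR fit planned for the case of counts per library was not run, since no values per library were analysed here, and the authors' limma test took its place. The depth, about 45700000 effective counts, follows from the lowest mean level (0.5 counts added) of 9211 rows without reads. Standard errors are fold over t, intervals are 95% under normal errors, and mean levels are geometric. Genes were tested from a mean of 10 counts (0.230 CPM) and called at the authors' Benjamini-Hochberg adjusted p under 0.05. The median standard error of genes tested was 0.080. Members and lists were chosen with earlier results of these data known. All members are named, with the 6 called genes of smallest p in each further list and Nupl2, Nupl1, Ranbp2, Sec13 and Ahctf1. RefSeq promoters matched 32 members, and in 31 their start equalled that of the row. Python 3.11.15, pandas 2.3.3 and scipy 1.17.1 were used, and the calling step was tested on simulated data.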

Additional observations from a re-analysis of the deposited data

How the results depend on the processing

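Each of 7 alternatives was applied to the counts of calls and to every tested member. No tested member changed direction under any of them. 3 of the alternatives, widened standard errors, centring and the mean over transcripts, also adjust p over the genes tested, a pairing made after seeing the data. Widening all standard errors by 2.08 gave 0 members higher and 0 lower (1 and 10 in the authors' deposited table), 3 transport factors lower, and 1 other envelope gene higher and 1 lower, and all 11 member calls were lost. Any real changes among the genes tested add to that factor. Adjusting p over the genes tested gave, with nothing else changed, 2 members higher and 5 other envelope genes lower, and added Nup88 (higher) and Nup98 (lower). Centring on the median and the mean over transcripts, each on top of that adjustment, left those counts at 2 and 5. The longest transcript added Tmpo (lower). The remaining counts of calls stayed within 1.5 times, and the calls of members were the same without a count floor and with a floor of 50 counts. No paired analysis was possible because the table holds no values per library. For the same reason leaving out single libraries and DESeq2 were not run. Depth limits Nup210 (0.366 counts) and the 5' row of Syne1, and the standard errors cannot show each gene's own replicate spread.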
